A study of Mus musculus with 6 samples.

Results

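Dusp1, Dusp2, Dusp4, Dusp5, Dusp6, Dusp10, Spry1, Spry2, Spred1 and Spred2 encode brakes on RAS and MAP kinase signaling. These 10 genes, chosen by symbol, are 6 MAP kinase phosphatases and 4 members of the Sprouty and Spred family among the 24421 genes counted. Their transcripts were read in Treg cells, the regulatory CD4+ T cells defined by the transcription factor Foxp3, sorted as CD4+YFP+ cells from the spleens of untreated female C57BL/6 mice that were 8 to 11 weeks old. The control mice were Foxp3Cre (WT, n = 3) and the mutants were Foxp3Cre miR-142 fl/fl (KO, n = 3), with 1 RNA-seq library per mouse. All 6 mice carried Cre fused to YFP under the endogenous Foxp3 promoter, so the miR-142 deletion was limited to cells that express or have expressed Foxp3, and the controls carried the same Cre. The KO mice develop a systemic autoimmune disease, so loss of miR-142 in the cell and the disease of the host cannot be told apart in these libraries. Because RNA was pooled from many sorted cells, fewer cells with a transcript and less transcript per cell cannot be told apart either.

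An activated antigen or cytokine receptor loads RAS with GTP, and RAS starts the RAF, MEK and ERK kinase cascade. Sprouty and Spred proteins act near the top of this route. Spred1 and Spred2 bring the RAS GTPase-activating protein neurofibromin to the membrane, and Sprouty proteins interfere with RAS and RAF activation downstream of receptors. The dual-specificity phosphatases act at the bottom, where they remove phosphate from the activated kinases themselves. Several of these phosphatases are transcribed in response to the kinases they switch off, so the family forms a negative feedback loop, and in T cells their transcripts are known to change quickly after antigen receptor stimulation.

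The sequences that connect this family to the deleted gene are the miR-142 strands and their matches in the 3′ UTRs. The mature strands were taken from RefSeq (GRCm38.p6, plus strand of chromosome 11, chr11:87756903-87756925 for the 3p strand and chr11:87756867-87756887 for the 5p strand), and capitals mark the seed, bases 2 to 8.
miR-142a-3p: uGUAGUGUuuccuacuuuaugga
miR-142a-5p: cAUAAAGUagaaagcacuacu

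The longest annotated 3′ UTR of each gene (GENCODE vM21, GRCm38) was searched on the transcribed strand for ACACTAC, which pairs with bases 2 to 8 of the 3p strand, for AACACTA, which pairs with its bases 3 to 9, and for ACTTTAT, which pairs with bases 2 to 8 of the 5p strand. The first pair of motifs share the 6 letters ACACTA. Of the 10 genes, Spred1, Spred2 and Dusp2 held a match. The 4 matches are shown with their surroundings, in the direction of the transcript, with the matched letters in capitals.
Spred1 (chr2:117179409-117179415): aaatgaaaatcACACTACcatttgaagtc
Spred1 (chr2:117179541-117179547): tatatatatatAACACTAtctgtctgtaa
Spred2 (chr11:20023393-20023399): ctaccaagcacAACACTAatcctgtttcc
Dusp2 (chr2:127338309-127338315): ttggaaacagcACTTTATatttatataga

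All 4 lie on the plus strand in the last exon, exon 7 of 7 in Spred1 and Spred2 and exon 4 of 4 in Dusp2. The Spred1 matches begin at bases 1460 and 1592 of a 3′ UTR of 4330 bases, the longest among the 10 genes. The other 3′ UTRs with a match have 2579 bases in Spred2 and 581 bases in Dusp2. The 3′ UTR of Dusp6, which has 1190 bases, held none of the 3 motifs, which says only that these letters are not in that sequence. Among the 10766 tested genes with an annotated 3′ UTR, 14.1% held either 3p motif and 15.9% held the 5p motif. At least 2 matches to the 3p motifs were counted in 4.09%, where 1 stretch that holds both motifs in overlap counts as 2. The Spred1 matches do not overlap, so this share is not a like background for them. The median 3′ UTR of the tested genes had 1185 bases. The AU-rich 7-mer TATTTAT, a motif of short-lived transcripts, was found in 6 of the 10 genes and in 30.3% of the tested genes. Dusp1 and Spred1 had 3 copies each. A match is a stretch of letters and was not tested as a binding site here.

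**Figure D1:**
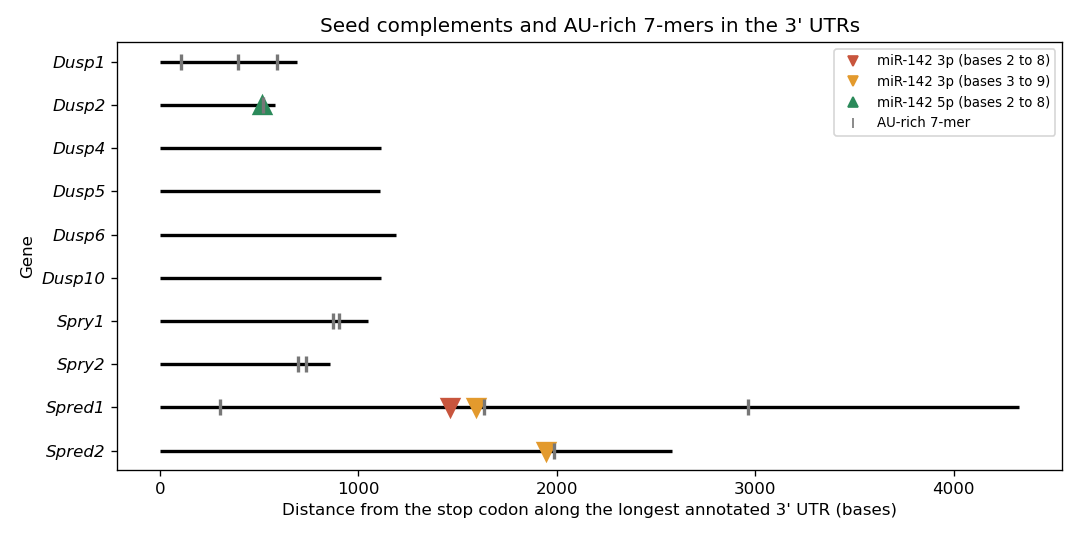
Each line is the longest annotated 3′ UTR of a gene, with distance from the stop codon in bases on the x axis, triangles at matches to the miR-142 strands and grey ticks at the AU-rich 7-mer TATTTAT. Triangles appear in Spred1, Spred2 and Dusp2, and in none of the other 7 genes.

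Total counts ranged from 13883069 to 24042994 per library. Counts were expressed as CPM (counts scaled to library size, here with TMM factors), and KO was compared with WT by edgeR's quasi-likelihood F (QLF) test over the 11658 genes above 1 CPM in at least 3 libraries, with Benjamini-Hochberg adjusted p-values (FDR) and a threshold of 0.05. Mir142 had 0 counts in all 6 libraries, and Mir142b, which overlaps it on the opposite strand, had 147, 101 and 105 counts in WT and 7, 5 and 5 in KO replicates 1 to 3. All 8 Treg cell markers were above 1 CPM in every WT library. Their summed level was 5460, 6106 and 6088 CPM in WT and 7318, 8124 and 8281 CPM in KO replicates 1 to 3, so every KO sum was above every WT sum. Of the 8 markers, 5 had a positive log2 fold change and 3 a negative one. KO replicate 1 held the highest summed level of the markers of each other cell type. The sums for neutrophils, for monocytes and macrophages and for CD8 and NK cells were also higher in the other KO libraries than in WT. So was the low erythroid sum, at 3.63 and 1.16 CPM in KO replicates 2 and 3 against 0.830 to 1.11 CPM in WT. The B cell sum was not. Of the 4 tested CD8 and NK cell markers, 1 was called higher in KO (Eomes, log2 fold change 2.68) and 1 was called lower. Of the 11 neutrophil markers counted, 10 were highest in KO replicate 1, and their sum was 0.277 to 1.29 CPM in WT and 916, 7.72 and 40.9 CPM in KO replicates 1 to 3, with S100a8, Retnlg, Cxcr2, Mmp8 and Lcn2 at 0 in all WT libraries. The 12 monocyte and macrophage markers were all highest in KO replicate 1, and summed to 48.7 to 56.8 CPM in WT and to 2917, 159 and 80.3 CPM in KO. In KO replicate 1 the B cell markers summed to 236 CPM against 8.33 to 22.1 CPM in the other 5 libraries, the CD8 and NK cell markers to 96.9 CPM against 26.7 to 60.5 CPM, and the erythroid markers to 35.7 CPM against 0.830 to 3.63 CPM. In total 565 tested genes (4.85%) were more than 2-fold higher in KO replicate 1 than in either other KO library, and 0 of the 9 tested brakes were among them. The part of these other cells in the results was not tested.

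Dusp6 was the only one of the 10 genes to pass the test. It rose 1.95-fold in KO Treg cells. Spred1 was also higher in each KO library than in every WT library, at an FDR just above the threshold. No gene of the 10 fell at that threshold in edgeR's QLF test, where 7.27% of all tested genes did, and 0 fell with DESeq2 or at an unadjusted QLF p under 0.05. Of all 11658 tested genes, 1198 fell with DESeq2 and 1761 at an unadjusted QLF p under 0.05. Of the 9 genes that could be tested, 1 (11.1%) was called, against 18.8% of all tested genes, and the share of all genes called higher was 11.6%, so the members were not called more often than the rest of the transcriptome. The median log2 fold change (KO over WT) of the 9 was -0.20, beside 0.02 over all tested genes, with 4 positive and 5 negative values. For 2 of the 9, both higher in KO, the values of the groups did not overlap, beside 41% of all tested genes (22.2% with KO higher).

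Dusp6 encodes a cytoplasmic phosphatase that prefers ERK. Its level was 38.3, 77.3 and 50.2 CPM in WT replicates 1 to 3 and 111, 125 and 88.2 CPM in KO replicates 1 to 3. The lowest KO library stood above the highest WT library. The WT mean was 55.3 ± 20.0 CPM and the KO mean 108 ± 18.5 CPM (± SD of 3 mice). The log2 fold change was 0.96 (SE 0.26, 95% confidence interval 0.36 to 1.56, FDR = 0.0397 in edgeR's QLF test). The exact two-sided permutation test on this gene alone gave p = 0.1, the smallest value that 3 against 3 libraries allow. The direction held when each library was left out in turn, with log2 fold changes from 0.73 without WT replicate 1 to 1.28 without WT replicate 2. The call did not. The FDR was 0.0228 without WT replicate 2, and it was 0.104 without WT replicate 1, 0.134 without WT replicate 3, 0.0522 without KO replicate 1, 0.0776 without KO replicate 2 and 0.055 without KO replicate 3.

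Spred1 and Spred2 are close relatives with the same role, and only Spred1 was higher in KO in every library. Spred1 had 17.2, 23.2 and 21.7 CPM in the WT libraries and 41.4, 37.4 and 24.3 CPM in the KO libraries. The groups did not overlap, although KO replicate 3 lay just above the highest WT library. The log2 fold change was 0.73 (SE 0.22, 95% confidence interval 0.22 to 1.24, FDR = 0.0557 in the QLF test), from a WT mean of 20.7 ± 3.14 CPM to a KO mean of 34.4 ± 8.95 CPM (± SD of 3 mice). This gene crossed the threshold without KO replicate 3 (log2 fold change 0.91, FDR = 0.0217) and moved away from it without KO replicate 1 (0.55, FDR = 0.105). It carries the pair of 3p matches printed above. Spred2, with 1 such match, had 31.0, 31.0 and 36.1 CPM in WT and 28.7, 32.6 and 24.4 CPM in KO. These groups overlapped, and the log2 fold change was -0.20 (SE 0.14, 95% confidence interval -0.52 to 0.12, FDR = 0.349). Spred2 was the steadiest of the 9 genes among WT libraries, with a highest to lowest ratio of 1.16. The Spred2 match continues to AACACTAA, the letters that the authors mutated in their Hif1a and Ifngr2 reporters, and neither Spred1 match does. The matches were not ranked by strength. The difference between the responses of Spred1 and Spred2 was not tested.

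Of the Sprouty genes, Spry1 was well measured and Spry2 was close to the detection floor. Spry1 had 36.6, 57.6 and 77.9 CPM in WT and 39.2, 52.9 and 39.6 CPM in KO, so all KO values lay inside the WT range. Its log2 fold change was -0.39 (SE 0.26, 95% confidence interval -1.01 to 0.23, FDR = 0.341). Spry2 was too low to test, with 3, 14 and 16 counts in WT and 24, 7 and 7 counts in KO replicates 1 to 3. The highest of these counts was in KO replicate 1, at 1.33 CPM against 0.530 and 0.479 CPM in the other KO libraries, and a difference between the groups was not detectable at this depth. In Spry1, 710 exonic bases overlap Gm42922 on the opposite strand, so part of its reads is uncertain.

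Dusp2, a nuclear phosphatase found mainly in blood cells, had 189, 231 and 342 CPM in WT and 409, 382 and 257 CPM in KO. The highest KO values exceeded all WT values, but KO replicate 3 was below WT replicate 3. The log2 fold change was 0.46 (SE 0.25, 95% confidence interval -0.13 to 1.05, FDR = 0.238), and it lay between 0.26 and 0.73 when single libraries were left out.

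**Figure D2:**
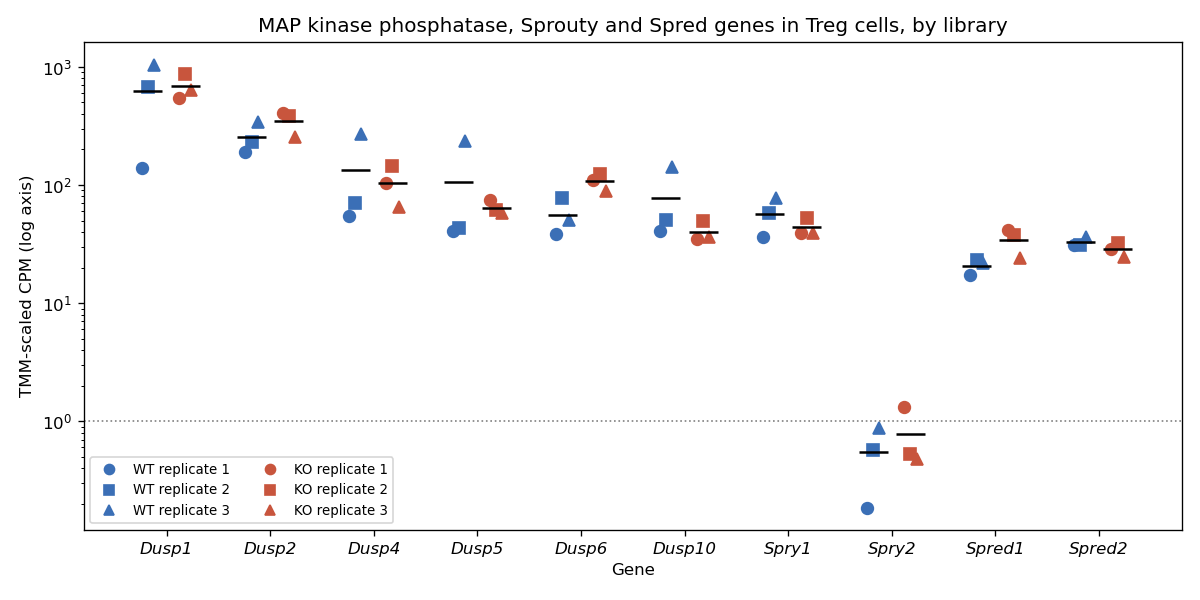
The y axis gives TMM-scaled CPM on a log scale for each of the 10 genes, with WT libraries in blue, KO libraries in red, a marker shape per replicate number, a bar at each group mean and a dotted line at 1 CPM. The KO points lie above all WT points for Dusp6 and Spred1, and WT replicate 3 stands far above the other WT points for Dusp4, Dusp5 and Dusp10.

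The other phosphatases varied widely between the WT mice, and none passed the test. Dusp1, a nuclear phosphatase of p38, JNK and ERK and an immediate early gene, had 139.6, 673 and 1046 CPM in WT replicates 1 to 3 and 549, 867 and 634 CPM in the KO libraries. WT replicate 1 was the lowest and WT replicate 3 the highest of the 6 libraries, and all KO libraries lay between them. The ratio of the highest to the lowest WT library was 7.49, and only 0.437% of the tested genes had a larger one. The log2 fold change was 0.14 (SE 0.60, 95% confidence interval -1.27 to 1.55, FDR = 0.891).

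Dusp4 and Dusp5, nuclear phosphatases, and Dusp10, which prefers p38 and JNK, were set apart by WT replicate 3. Dusp4 had 55.1, 70.6 and 273 CPM in WT and 103, 144.6 and 65.8 CPM in KO. Dusp5, which is selective for ERK, had 41.0, 43.3 and 236 CPM in WT and 74.4, 61.4 and 57.5 CPM in KO. Dusp10 had 40.8, 50.3 and 143 CPM in WT and 34.8, 50.0 and 36.3 CPM in KO. For all 3 genes WT replicate 3 was above every other library, while the other WT libraries lay below all KO libraries for Dusp5 and within or near the KO range for Dusp4 and Dusp10. The log2 fold changes were -0.35 for Dusp4 (95% confidence interval -1.76 to 1.07, FDR = 0.722), -0.73 for Dusp5 (-2.25 to 0.80, FDR = 0.471) and -0.95 for Dusp10 (-2.02 to 0.12, FDR = 0.187). Without WT replicate 3 the values were 0.73 for Dusp4, 0.61 for Dusp5 (FDR = 0.0588), -0.18 for Dusp10 and 0.74 for Dusp1, so a single WT mouse set the sign for Dusp4 and Dusp5. Without WT replicate 1 Dusp1 went to -0.36. The intervals of all 4 genes included 0 and reached below -1 on the log2 scale. In Dusp5, 547 exonic bases overlap AC137853.2 on the opposite strand, and reads there cannot be told apart because counting ignored strand.

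Such a spread was uncommon in the transcriptome. More than 2-fold above both other WT libraries, WT replicate 3 stood out for 79 of the tested genes (0.678%), and 3 of them were Dusp4, Dusp5 and Dusp10. WT replicate 1 was below 0.5 times both other WT libraries for 88 genes (0.755%), Dusp1 among them. These limits were chosen after the values were seen. The median ratio of the highest to the lowest library was 2.13 for the 9 brakes and 1.18 for all tested genes within WT, and 1.44 and 1.30 within KO. The biological coefficient of variation fitted by edgeR was 0.535 for Dusp5, 0.503 for Dusp4, 0.502 for Dusp1 and 0.387 for Dusp10, beside a common value of 0.212.

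Some other transcripts induced by stimulation were uneven in the same WT libraries. Among all tested genes, 4.24% had a WT highest to lowest ratio above the 2.02 of Dusp6. The list of ERK outputs held 17 tested genes, Elk1 and Elk4 among them. Of these, 7 had a WT ratio above 2 and 10 did not. Egr2, Egr3, Myc and Srf were among the even ones, with ratios of 1.28, 1.08, 1.26 and 1.10. The uneven ones described here were chosen after their values were seen. Fos and Jun, which form the AP-1 transcription factor, were lowest in WT replicate 1, as Dusp1 was. Fos had 54.3, 1061 and 550 CPM in WT and 523, 827 and 1083 CPM in KO replicates 1 to 3, and Jun had 85.3, 543 and 662 CPM in WT and 461, 527 and 752 CPM in KO. The related genes Fosl2 and Junb were highest in WT replicate 3, as Dusp4, Dusp5 and Dusp10 were. Fosl2 had 10.8, 12.6 and 103 CPM in WT and 27.1, 11.3 and 9.24 CPM in KO, and Junb had 476, 1470 and 3080 CPM in WT and 845, 1401 and 1104 CPM in KO. Ctla4, a Treg cell surface receptor that rises with activation, was also lowest in WT replicate 1 and highest in WT replicate 3 (315, 629 and 1158 CPM in WT replicates 1 to 3), while in the same WT libraries Foxp3 had 536, 595 and 566 CPM and the activation-linked markers Il2ra (799, 744 and 726 CPM) and Tnfrsf18 (208, 174 and 171 CPM) did not share this order. The part of these transcripts in the spread of the phosphatases was not tested.

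**Figure D3:**
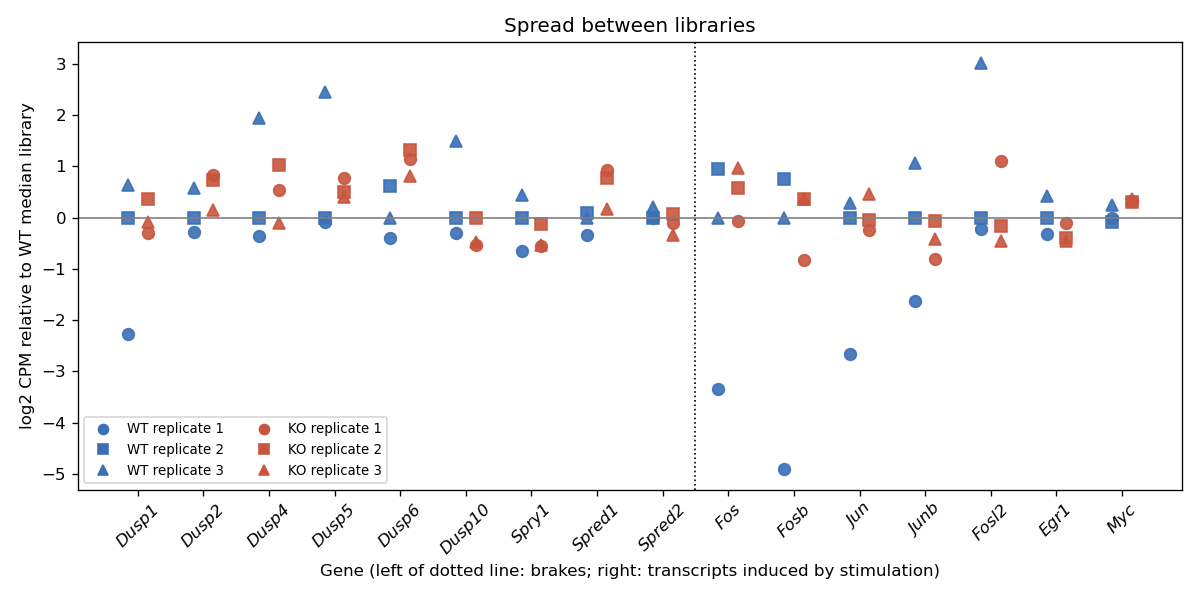
The y axis gives log2 CPM of each library relative to the median WT library of that gene, for the 9 tested brakes on the left of the dotted line and for induced transcripts on the right, with WT in blue, KO in red and a marker shape per replicate. WT replicate 3 is high for Dusp4, Dusp5, Dusp10 and Fosl2, and WT replicate 1 is low for Dusp1, Fos, Fosb and Jun.

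The promoters of Dusp1 and Dusp5, the phosphatases with the largest WT ratios, held letters known as response elements of inducible genes. Dusp10 held none of the motifs searched, and the promoter of Dusp4 was not analysed here. The windows from 250 bases before to 50 bases after the start site came from RefSeq (GRCm38.p6), were searched on both strands in 9 of the 10 genes. Dusp1 held the cAMP response element TGACGTCA at position -143 relative to the start site, and Dusp5 held adjacent CArG boxes, the element read by serum response factor, at positions -82 and -72. The motif is in capitals and each window is written in the direction of the gene.
Dusp1 (chr17:26508608-26508615, minus strand): ggtagggcgggTGACGTCAccgcccggtca
Dusp5 (chr19:53529063-53529072, plus strand): ggggaaatacCCATATTTGGccttatatgg
Dusp5 (chr19:53529073-53529082, plus strand): ccatatttggCCTTATATGGgcactcacgt

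The full cAMP response element was found in 2.03% of the 27025 genes with such a window, and the CArG box in 1.81%. The shorter TGACG, which the full element contains, was found in 4 of the 9 brakes and in 23% of all genes. These 4 were Dusp1, Dusp5, Dusp2 (WT highest to lowest ratio 1.81) and Spred2 (1.16). A link between these motifs and the spread was not tested. The EGR motif GCGNGGGCG was found in Dusp2 and in 6.27% of all genes. The AP-1 motif TGANTCA was found in none of the 9 and in 8.97% of all genes.

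**Figure D4:**
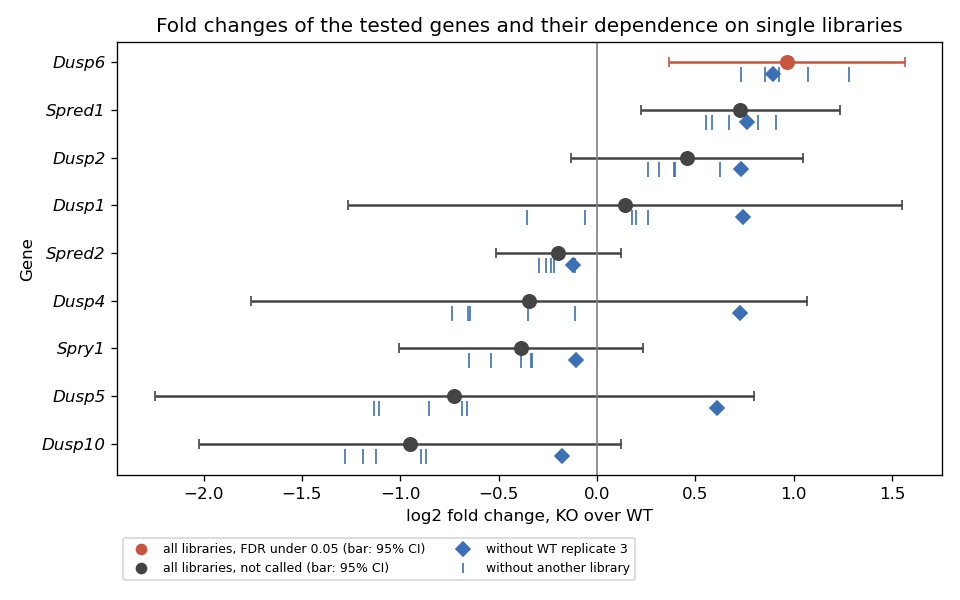
The x axis gives log2 fold change (KO over WT), with circles and bars for the estimate and its 95% confidence interval from all 6 libraries, diamonds for the estimate without WT replicate 3 and ticks for the estimate without each other library. Dusp6 (red) is the gene with an FDR under 0.05, and the diamonds of Dusp4 and Dusp5 lie on the opposite side of 0 from their circles.

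To compare the genes with each other, CPM was divided by the exon length of each gene in kb. Dusp1 and Dusp2 had the highest levels per kb in both groups, at 187 ± 138 and 127 ± 39.5 CPM per kb in WT and 206 ± 49.6 and 174 ± 40.5 CPM per kb in KO (SD, n = 3). In WT they were followed by Dusp4, Dusp5, Dusp10, Spry1 and Dusp6, between 48.5 and 17.6 CPM per kb, and each gene from Dusp1 to Dusp6 overlapped its neighbour in this order. Spred2 (7.08 CPM per kb), Spred1 (3.05 CPM per kb) and Spry2 (0.263 CPM per kb) came last in WT without overlap. Dusp6 was at rank 7 in WT, but at rank 4 when WT replicate 3 was left out of the WT means, a check added after the values were seen. In KO it was at rank 4, at 34.5 ± 5.91 CPM per kb, next to Dusp4 (38.2 CPM per kb) and Dusp5 (26.1 CPM per kb), whose ranges overlapped in order. Spry1 and Dusp10 formed the next overlapping pair, at 15.1 and 13.3 CPM per kb. Spred2 and Spred1 differed in WT without overlap but overlapped in KO, at 6.18 and 5.07 CPM per kb. Spry2 was again lowest.

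Most of the family's transcript per kb belonged to the phosphatases. The log2 ratio of the summed level per kb of the 6 phosphatases to that of the 4 Sprouty and Spred genes was 3.18, 3.74 and 4.28 in WT and 4.20, 4.24 and 4.16 in KO replicates 1 to 3. The KO libraries were almost equal, and they fell inside the WT range. The difference of means was 0.47 (WT 3.73 ± 0.551, KO 4.20 ± 0.0387, exact two-sided permutation p = 0.4, where 0.1 is the smallest possible). It was 0.74 without WT replicate 3 and 0.19 without WT replicate 1.

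Over the 6 libraries, the pair with the highest Pearson correlation of the 36 possible was Dusp10 and Spry1, narrowly ahead of Dusp6 with Spred1 and Dusp4 with Dusp5. On log2(CPM + 0.5) their Pearson r was 0.91 (exact permutation p = 0.0125, adjusted over the 36 pairs 0.263) and their Spearman rho 0.83 (exact permutation p = 0.0583, adjusted 0.3). Without the 2 libraries farthest from the median of Dusp10, r was 0.89. By Spearman rho the order differed, with Dusp6 and Spred1 and also Dusp1 and Spry1 at 0.94, and Dusp4 and Dusp5 at 0.89. Dusp6 and Spred1, the genes whose groups did not overlap, had an r of 0.91, but the libraries form 2 groups and this value includes the difference between them.

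The phosphatases and Spred genes outside the 10 showed both directions. Of the other 4 typical MAP kinase phosphatases, Dusp8 and Dusp9 were too low to test. Dusp16, a JNK and p38 phosphatase, rose from 12.7, 11.4 and 14.1 CPM in WT to 36.8, 25.3 and 19.2 CPM in KO (log2 fold change 1.10, FDR = 0.0212). Dusp7, a cytoplasmic ERK phosphatase closely related to Dusp6, fell from 59.0, 50.6 and 44.1 CPM to 30.2, 29.3 and 33.7 CPM (log2 fold change -0.72, FDR = 0.0111). The cytoplasmic ERK phosphatases Dusp6 and Dusp7 thus moved in opposite directions, each without overlap between the groups. Spred3 rose from 1.04 ± 0.257 to 2.96 ± 1.09 CPM (SD, n = 3, log2 fold change 1.52, FDR = 0.0269), and Spry3 and Spry4 were too low to test. In WT replicate 2 Spred3 was at 0.779 CPM, below 1 CPM, so it passed the filter only with KO libraries. When single libraries were left out, the FDR of Dusp7 rose above 0.05 only without WT replicate 2 (0.0527). For Dusp16 it was 0.0767, 0.0966 and 0.0654 without WT replicates 1, 2 and 3, and for Spred3 it was 0.0604, 0.113 and 0.0943. Without KO replicate 1 the log2 fold change was 0.79 for Dusp16 and 1.18 for Spred3, and both were called. None of the 9 tested atypical dual-specificity phosphatases passed edgeR's QLF test, although 2 were higher and 2 lower at an unadjusted p under 0.05 and 1 rose with DESeq2. Dusp3 among them was 12.7 CPM in KO replicate 1 against 1.66 to 3.08 CPM in the other 5 libraries.

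Across 103 further genes of the RAS, ERK, JNK and p38 pathways, these 3 and the atypical phosphatases included, 88 were tested, 12 rose and 10 fell (25% called, beside 18.8% of all genes, in edgeR's QLF test). Among RAS GTPase-activating proteins and other brakes, 3 of 16 rose and 2 fell. Dok1, an adaptor that recruits RasGAP, rose (log2 fold change 0.88, FDR = 0.0071, and 0.71 without KO replicate 1), and Nf1, the neurofibromin that Spred1 recruits, rose slightly (0.31, FDR = 0.0449). Nf1 kept an FDR under 0.05 in only 1 of the 6 fits that left out a library, that without KO replicate 2 (0.0344), and in 4 of all 14 alternatives. Its FDR was 0.0504 with RLE factors, 0.125 with library size alone, 0.12 over all 3 edgeR tests, 0.0807 without a filter and 0.117 with a replicate block. Rasal2, a RAS GTPase-activating protein at a low level, rose from 0.266 ± 0.133 to 1.62 ± 0.170 CPM (± SD of 3 mice, log2 fold change 2.56, FDR = 0.00698). Its WT libraries were all below 1 CPM, so it passed the filter only through the KO libraries. Rasa2, a RAS GTPase-activating protein, fell (log2 fold change -0.53, FDR = 0.0184). Its FDR was 0.0857 without WT replicate 2 and 0.0771 without WT replicate 3. Cbl, a ubiquitin ligase that acts on activated receptors, fell too (log2 fold change -0.50, FDR = 0.0275), with an FDR of 0.0972, 0.0967 and 0.0644 without WT replicate 2, WT replicate 3 and KO replicate 3.

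Among RAS activators, 1 of 11 rose and 1 fell. Gab2, a docking protein that passes receptor signals to RAS and ERK, had 0.739, 0.656 and 1.22 CPM in WT and 27.1, 12.6 and 9.51 CPM in KO. The KO libraries were all well above the WT libraries, with a log2 fold change of 4.24 (FDR = 0.00255), which was 3.65 without KO replicate 1 (FDR = 0.00033). Of its WT libraries only replicate 3 was above 1 CPM, so Gab2 passed the filter only through the KO libraries. Rasgrp2, a nucleotide exchange factor of RAP and RAS, fell (log2 fold change -0.63, FDR = 0.0137, and 0.0612 and 0.0571 without WT replicates 2 and 3).

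In the ERK cascade itself 2 of 16 genes rose and none fell in edgeR's QLF test. At an unadjusted QLF p under 0.05, 4 were higher and 2 lower, beside 34.8% of all tested genes in either direction. With DESeq2, 4 rose and 2 fell. Map2k2, which encodes MEK, had a log2 fold change of 0.40 (FDR = 0.0182). Its FDR was above 0.05 without any 1 of the WT libraries (0.0586 to 0.0973) and without KO replicate 3 (0.0559). Rras2, a RAS-related GTPase, rose as well (log2 fold change 0.62, FDR = 0.0331), and its FDR was 0.0729 to 0.121 without single WT libraries and 0.0572 without KO replicate 3. In the JNK and p38 cascade 3 of 16 rose and 3 fell. Mapkapk2, a kinase that p38 activates, rose from 154 ± 2.32 to 296 ± 38.7 CPM (SD, n = 3, log2 fold change 0.94, FDR = 0.00251) and was called without each library in turn (0.82 without KO replicate 1). Its relative Mapkapk3 (0.79, FDR = 0.00849) and the JNK gene Mapk9 (0.60, FDR = 0.00999) rose, with an FDR of 0.0501 for Mapkapk3 without WT replicate 2 and of 0.0503 to 0.0572 for Mapk9 without single WT libraries. Mapk14, the major p38 gene, fell (log2 fold change -0.46, FDR = 0.0239, and 0.0973, 0.0952 and 0.0588 without WT replicate 2, WT replicate 3 and KO replicate 3). Map3k4, an upstream kinase (-0.41, FDR = 0.0169), and the p38 family gene Mapk12 (-1.03, FDR = 0.0341) fell as well. The FDR of Map3k4 was 0.0841 and 0.0755 without WT replicates 2 and 3, and that of Mapk12 was 0.07 to 0.116 without single WT libraries and 0.0653 without KO replicate 2.

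Of the 17 tested genes listed as ERK outputs, 1 rose and 3 fell. Egr2, a transcription factor induced through the T-cell receptor, had 65.8, 79.3 and 61.9 CPM in WT and 37.8, 26.0 and 33.3 CPM in KO. It fell in all 3 KO libraries relative to WT, with a log2 fold change of -1.09 (FDR = 0.00562), and it remained called without each library in turn. Egr3 (-0.67, FDR = 0.0151) and Srf, the factor that binds CArG boxes (-0.48, FDR = 0.0134), fell as well. Without single WT libraries the FDR of Egr3 was 0.0518 to 0.0671, and that of Srf was 0.0558 without WT replicate 2 and 0.0518 without WT replicate 3. Egr1 was not called (FDR = 0.214). Ier3, an early response gene, rose from 0.623 ± 0.117 CPM to 5.12 ± 2.81 CPM (SD, n = 3, log2 fold change 3.03, FDR = 0.00753), and was highest in KO replicate 1 at 7.88 CPM. Neither it nor Rasal2 could be tested without a KO library, because only 2 libraries then stood above 1 CPM. Both are counted among the genes that rose, although their WT libraries were all below 1 CPM. Their KO libraries alone brought them past the filter.

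**Figure D5:**
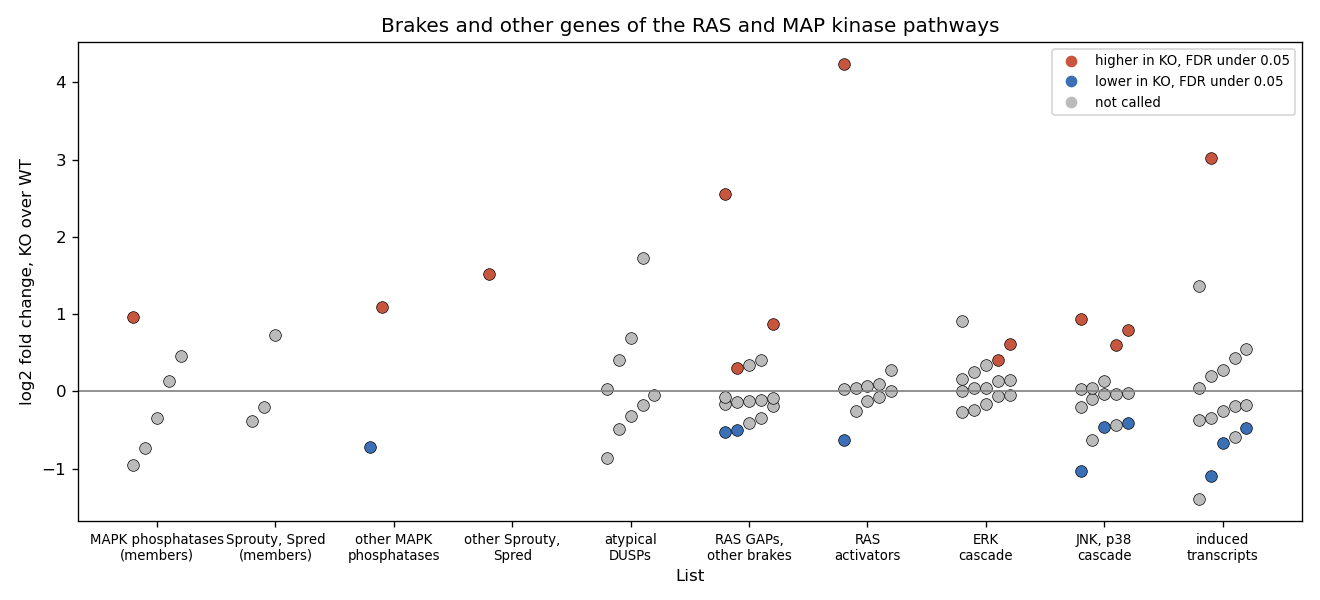
Each point is a tested gene, with log2 fold change (KO over WT) on the y axis and gene list on the x axis, red where it rose and blue where it fell at an FDR under 0.05 in edgeR's QLF test, and grey where not called. Within the 10 brakes 1 point is red and 0 are blue, while the other pathway lists together hold 12 red and 10 blue points.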

How the data were processed

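Treg cell RNA-seq libraries (TruSeq v2 kit, 51-base single-end reads) were made from 3 WT and 3 KO mice. The authors aligned reads with HISAT to mm10 and deposited raw counts per gene from featureCounts in unstranded mode. Tool versions upstream are not given in the sources used here. The 10 genes and all lists were chosen with earlier results of these data known.

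The test of KO against WT used edgeR 4.0.16 (R 4.3.3) on genes above 1 CPM in 3 or more libraries, with TMM scaling, the QLF test and an FDR threshold of 0.05. A count at the floor of 3 corresponds to 0.125 to 0.216 CPM on the library totals. The model was tested on simulated data. The simulation gave every gene the same spread, smaller than the one fitted here, so it did not cover genes as uneven as Dusp1, Dusp4, Dusp5 and Dusp10. Of the 24421 genes, 23334 matched GENCODE vM21 (GRCm38, the assembly named mm10) by symbol, all 10 brakes among them, which gave exon lengths and 3′ UTRs. Named genes were the 10 brakes, pathway genes with an FDR under 0.05 (at most 4 per list and direction) and the most alike pair. Fos, Fosb, Jun, Junb, Fosl2, Egr1, Dusp3, Ctla4 and Foxp3 were named after their values were seen. So were Myc, Il2ra, Tnfrsf18, Eomes, Elk1, Elk4 and the named neutrophil markers. Alternatives covered RLE factors, library size alone, DESeq2 1.42.0, the likelihood ratio and exact tests, a robust fit, filters, an FDR of 0.01, a replicate block and leaving out each library. The values of some single genes are left out.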

Additional observations from a re-analysis of the deposited data

How the results depend on the processing

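With 3 mice per group, the intervals of Dusp1, Dusp4, Dusp5 and Dusp10 are wide. Over 14 other fits at an FDR of 0.05 Dusp6 stayed higher in KO and was called in 8. It was lost without a filter on low counts (log2 fold change 0.94, FDR = 0.0572 in edgeR's QLF test) and in 5 of 6 fits without a library. Spred1 was called with DESeq2 (FDR = 0.0125), with the robust QLF fit (FDR = 0.0495) and without KO replicate 3. The 10 brakes thus gave 2 higher calls with DESeq2 and with the robust fit, 0 without a filter, 0 at an FDR of 0.01, and between 0 and 1 with a library left out. Of all 11658 tested genes, 1665 were called higher with DESeq2 and 1321 with the robust fit. None of the 10 brakes was called lower in these fits or at an FDR of 0.01.

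Without 1 library at a time, log2 fold changes ran from -0.36 to 0.74 for Dusp1, from -0.74 to 0.73 for Dusp4, from -1.14 to 0.61 for Dusp5, from -0.019 to 1.42 for Fos, from -0.39 to 1.01 for Fosb, from -0.081 to 0.88 for Jun, from -1.05 to 0.19 for Junb and from -2.05 to 0.44 for Fosl2. The difference between KO and WT in the log2 ratio of phosphatases to Sprouty and Spred genes ranged from 0.19 to 0.74. The cause of these moves was not tested.

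With TMM 1350 genes were called higher and 847 lower, and without TMM factors these numbers became 1064 and 1201. An FDR of 0.01 left 490 higher and 196 lower genes, and 7 higher and 1 lower pathway genes. Leaving out a library gave 483 to 1403 higher and 208 to 937 lower genes, and 5 to 12 higher and 1 to 12 lower pathway genes. The labels number the mice in each group. Deviations from the group mean correlated at 0.0804, -0.0056 and -0.195 between same-numbered libraries, and from -0.183 to 0.207 between the others. With 3 libraries per group, these values cannot decide whether the numbers mark a pairing. With a replicate block 1061 genes were higher and 545 lower, Dusp6 was still called, and Dusp4 went to 0.034. Of 302 values of the 22 called pathway genes over the alternatives, 250 kept their call, 52 lost it and 0 changed sign.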
